A study of Mus musculus with 8 samples.

Results

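The 10 genes described here are core members of the BCL2 family, the proteins that decide whether mitochondria start apoptosis. They were chosen by symbol (Bcl2, Bcl2l1, Mcl1, Bax, Bak1, Bid, Bad, Bbc3, Pmaip1 and Bcl2l11), and every probe whose RefSeq transcript accession maps to one of them was taken. All 10 genes had a probe among the 21154 genes named on the array, with 14 probes in all out of 55681. Of these, 13 probes of 9 genes were bright enough to be tested, as were 33364 probes over the whole array, and the probe of Pmaip1 was not.

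The anti-apoptotic members (Bcl2, Bcl2l1, which encodes BCL-xL, and Mcl1) hold the mitochondrial outer membrane closed. The effectors (Bax and Bak1) form the pores through which cytochrome c leaves the mitochondrion, and the BH3-only members (Bid, Bad, Bbc3, which encodes PUMA, Pmaip1, which encodes NOXA, and Bcl2l11, which encodes BIM) bind the other proteins and tip the balance towards death. Much of this control acts on the proteins, through phosphorylation, cleavage and degradation, which an array of transcripts does not measure.

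Brown adipose tissue (BAT) burns fuel to make heat and is dense in mitochondria. It was taken from male C57BL/6NCrSlc mice that had undergone thoracic aortic constriction (TAC), which narrows the aorta and overloads the left ventricle, or a sham operation (Sham), with 4 mice in each group and 1 one-colour Agilent array per mouse. Surgery was at the age of 11 weeks, and all mice were fed normal chow until BAT was collected when they were 13 weeks old. One label field dates the collection 2 weeks after surgery, which fits these ages, and another 4 weeks. Scanner intensities of 3 Sham arrays (replicates 2 to 4) and of all 4 TAC arrays were compared, and the deposited table of 8 arrays added Sham replicate 1. The question was whether transcripts of the mitochondrial death machinery differed in BAT after pressure overload.

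Levels are log2 intensities relative to the 75th percentile of the array, so a level of 0 equals that percentile and a difference of 1 is a doubling. Levels of different probes are not on a common scale, because probes differ in brightness. Between 54.5% and 64.3% of the spots of an array were well above background. Ucp1, the uncoupling protein that defines brown adipocytes, was well above background on all 7 arrays and lay between 8.37 and 9.70. TAC replicate 1 stood apart. Its score on the leading principal component (39.3% of the variance) was 89.6, while the other TAC arrays scored -8.58 to 3.58 and the Sham arrays -32.6 to -20.3, so the members in which it was the highest or the lowest array are given with and without it. The Sham arrays lay in the first row of 1 slide and the TAC arrays in the second, so place on the slide and surgery cannot be told apart. The samples are whole tissue, in which fewer cells of a type and less RNA per cell cannot be told apart either.

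No member passed the test after TAC. None of the 13 probes had an adjusted p under 0.05 (limma, Benjamini-Hochberg over all probes tested), and neither did any probe on the array, so the background share was 0%. The smallest adjusted p of a member was 0.330, for Bbc3. At an unadjusted limma p under 0.05, 2 of the 13 probes were lower after TAC (Bbc3 and Bak1), where 8.43% of all tested probes were, and 0 were higher, where 4.38% of all tested probes were. Every TAC array lay below every Sham array at 2 of the 13 probes (Bbc3 and the second probe of Bad), against 10.4% of all probes, and above at 0, against 5.59%. In the table of 8 arrays these counts were 1 (Bbc3), against 6.29%, and 0, against 3.53%. The median log2 difference of the 13 probes was -0.10, beside -0.03 over all tested probes, of which 55.9% were lower after TAC. The median size of the difference, without its sign, was 0.145 among the members and 0.152 over all tested probes.

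**Figure D1:**
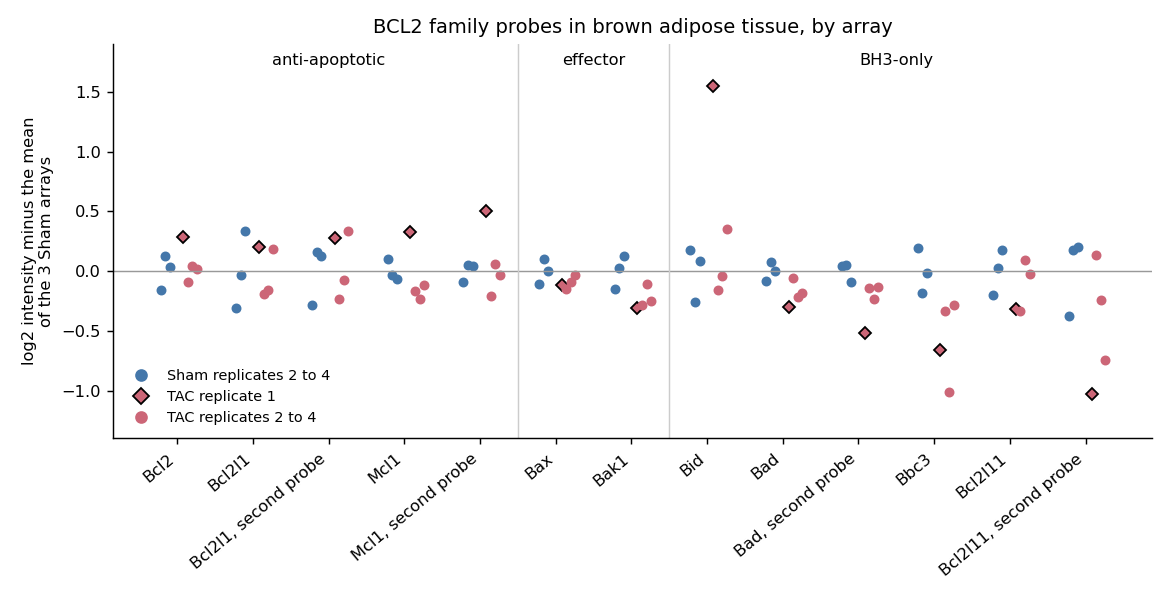
Each point is 1 array, and its height is the log2 intensity of a probe minus the mean of the 3 Sham arrays for that probe. Blue points are Sham replicates 2 to 4, red points TAC replicates 2 to 4 and outlined diamonds TAC replicate 1. The Sham and TAC points do not overlap at Bbc3 and at the second probe of Bad, and TAC replicate 1 is far above the rest at Bid.

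By role, the 3 anti-apoptotic genes had differences between -0.05 and 0.06, with a median of 0.01. Both effectors were measured lower, Bak1 by a log2 difference of -0.24 and Bax by -0.10. Of the 4 BH3-only genes tested, 3 were measured lower and 1 higher, with a median of -0.17 and a range from -0.57 (Bbc3) to 0.42 (Bid). No test over the members was made, since the genes of a role are not replicates of each other.

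**Figure D2:**
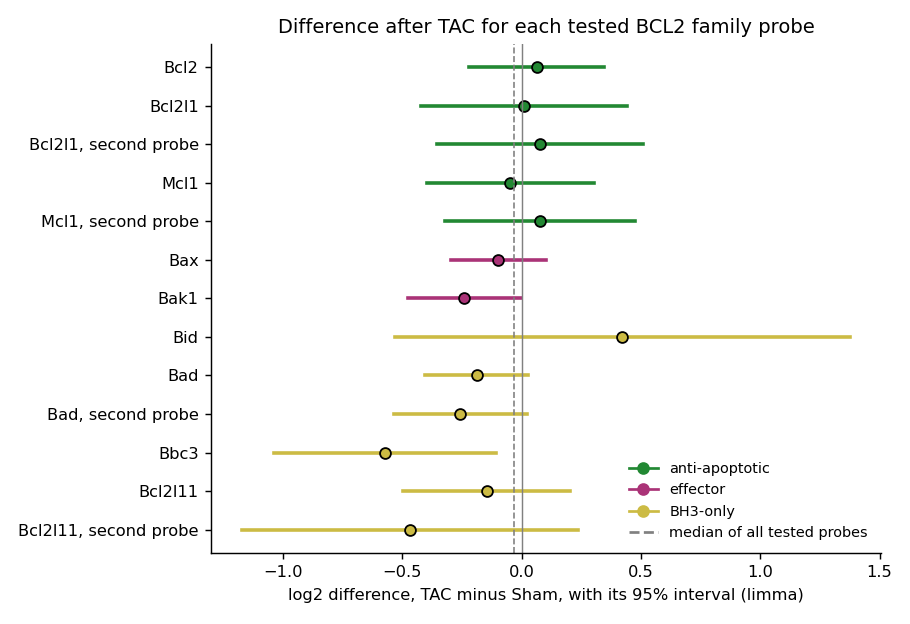
Each point is the log2 difference, TAC minus Sham, of 1 tested probe, and each bar its 95% interval from limma. Colours mark the roles, the solid line is 0 and the dashed line is the median of all tested probes, at -0.03. The intervals of the anti-apoptotic probes span 0, and those of Bbc3 (-1.04 to -0.11) and Bak1 end below 0.

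Among the anti-apoptotic members, Bcl2, the founder of the family, had levels of -1.51, -1.22 and -1.31 on Sham replicates 2 to 4 and of -1.06, -1.44, -1.30 and -1.33 on TAC replicates 1 to 4. The groups overlapped, with TAC replicate 1 the highest array. The difference was 0.06 ± 0.12 (SE), with a 95% interval from -0.22 to 0.35 and a limma adjusted p of 0.844. Without TAC replicate 1 it was -0.01.

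Bcl2l1 had levels of 5.10, 5.38 and 5.74 on the Sham arrays and of 5.61, 5.21, 5.25 and 5.59 on the TAC arrays. The Sham arrays alone spanned the TAC arrays, and the difference was 0.01 ± 0.18 (SE, 95% interval -0.42 to 0.44). A second probe of Bcl2l1 gave 0.08 ± 0.18 (SE), and on both probes Sham replicate 2 was the lowest of the 7 arrays. Sham replicate 1, in the table of 8 arrays, was lower still on both, at 4.98 and -1.11, so the spread among Sham mice exceeded the difference between the groups.

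Mcl1, whose protein is turned over within hours, had levels of 4.78, 4.64 and 4.61 on the Sham arrays and of 5.003, 4.51, 4.44 and 4.57 on the TAC arrays. TAC replicate 1 was the highest of the 7 arrays and the other 3 TAC arrays were the lowest 3. The difference was -0.05 ± 0.15 (SE, 95% interval -0.40 to 0.30) over 7 arrays. Without TAC replicate 1 it was -0.17, with an unadjusted limma p of 0.0857 and an adjusted p of 0.445. The second probe of Mcl1 was also highest on TAC replicate 1, at 2.17 against 1.46 to 1.73 on the other 6 arrays, and its difference was 0.08 with that array and -0.06 without it.

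Of the effectors, Bax had levels of 1.71, 1.92 and 1.82 on the Sham arrays and of 1.70, 1.67, 1.73 and 1.79 on the TAC arrays. The groups overlapped at the lowest Sham array. The difference was -0.10 ± 0.09 (SE, 95% interval -0.30 to 0.10), with a limma adjusted p of 0.644. Without Sham replicate 3 the difference was -0.05.

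Bak1 had levels of 2.44, 2.61 and 2.71 on the Sham arrays and of 2.28, 2.30, 2.48 and 2.34 on the TAC arrays. TAC replicate 3 reached above Sham replicate 2, and the other 3 TAC arrays lay below all Sham arrays. The level was 1.18-fold lower after TAC (difference -0.24 ± 0.10, SE, 95% interval -0.475 to -0.003), with an unadjusted limma p of 0.0479 and an adjusted p of 0.385. Sham replicate 1 had a level of 2.80 in the table of 8 arrays, among the higher Sham arrays, and the difference was -0.26. The unadjusted p was under 0.05 in 12 of 20 alternative analyses, and without TAC replicate 1 it was 0.0810, with a difference of -0.22.

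The promoters of the members that hold a site of the FOXO factors or of p53, whose transcripts are given further on, are shown here, from RefSeq (GRCm38.p6). The 250 bases before each annotated start were searched on both strands, in 15 windows of 9 members. The FOXO core, GTAAACA or its reverse complement TGTTTAC, was found in 2 windows, 1 of Bbc3 and 1 of Bcl2l11, and it was found in 3.17% of the 32851 windows of all genes. The p53 half-site was found in 1 window, of Bax, and in 7.13% of all windows. FOXO factors and p53 are known activators of several death genes. Each window runs 5′ to 3′ along the gene's strand, with the match in capitals. The window of Bbc3 is chr7:16310011-16310260 on the plus strand, with the match starting 167 bases before the start, that of Bcl2l11 is chr2:128125788-128126037 on the plus strand, with the match starting 227 bases before the start, and that of Bax is chr7:45466899-45467148 on the minus strand.
Bbc3: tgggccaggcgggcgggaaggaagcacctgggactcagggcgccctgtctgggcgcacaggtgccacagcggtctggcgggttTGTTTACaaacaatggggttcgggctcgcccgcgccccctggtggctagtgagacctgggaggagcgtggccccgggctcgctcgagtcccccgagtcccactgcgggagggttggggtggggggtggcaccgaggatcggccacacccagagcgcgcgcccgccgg
Bcl2l11: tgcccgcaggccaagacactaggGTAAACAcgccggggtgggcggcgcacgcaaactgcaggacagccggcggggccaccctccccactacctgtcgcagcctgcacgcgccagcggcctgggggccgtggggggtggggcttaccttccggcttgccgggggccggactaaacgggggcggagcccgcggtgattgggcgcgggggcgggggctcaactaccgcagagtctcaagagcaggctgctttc
Bax: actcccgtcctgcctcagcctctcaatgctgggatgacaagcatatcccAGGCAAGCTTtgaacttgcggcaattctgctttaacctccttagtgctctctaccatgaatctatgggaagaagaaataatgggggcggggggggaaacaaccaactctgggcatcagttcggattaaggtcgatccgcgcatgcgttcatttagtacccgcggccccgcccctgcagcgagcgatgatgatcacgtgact
A match is a description of the letters, and binding was not measured. The windows of both BH3-only genes are rich in G and C, at 72.4% (Bbc3) and 72.0% (Bcl2l11), and that of Bax has 54.0%. Over the same 15 windows a GC box (GGGCGG) was found in 10 and in 32.7% of all windows, a CCAAT box in 4 and in 33.9%, an E-box (CACGTG) in 2 and in 6.02%, and a TATA box (TATAAA) in 0 and in 12.4%. The window of Pmaip1 was not analysed here.

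Bbc3, whose protein PUMA is induced by p53 and by FOXO factors and binds every anti-apoptotic member, had the largest measured difference of the tested members. Its levels were 1.38, 1.01 and 1.17 on the Sham arrays and 0.53, 0.85, 0.18 and 0.91 on the TAC arrays. Every TAC array lay below every Sham array, with TAC replicate 3 the lowest. The mean was 1.19 ± 0.19 (SD, n = 3) in Sham and 0.61 ± 0.34 (SD, n = 4) after TAC, a 1.49-fold lower level. The difference was -0.57 ± 0.20 (SE, 95% interval -1.04 to -0.11), with an unadjusted limma p of 0.0224 and an adjusted p of 0.330. A p as small or smaller was found for 6.78% of all tested probes. In the table of 8 arrays Sham replicate 1 had a level of 1.47, and the TAC levels of 0.71, 1.03, 0.36 and 1.08 again lay below every Sham level, the nearest being 1.20. The difference there was -0.61, with a limma adjusted p of 0.235.

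Bbc3 was measured lower in all 20 alternative analyses, of which the filters on dim probes, the intensity trend and the methods' t-test change the p and cannot change the direction. Keeping outlier spots left the difference at -0.57. The replicate blocks repeat the differences without TAC replicate 1 (-0.54) and in the table of 8 arrays (-0.61), so the 20 analyses are not independent of each other. The differences lay between -0.67 and -0.43 and the adjusted p-values (limma, and the methods' t-test) between 0.217 and 0.648. The unadjusted p was under 0.05 in 18 of them, and it was 0.0815 without Sham replicate 2 and 0.0535 without Sham replicate 4. Without TAC replicate 1 the difference was -0.54.

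Bad, whose protein is held inactive by survival signals through phosphorylation, was measured by 2 probes. The brighter had levels of 4.05, 4.21 and 4.13 on the Sham arrays and of 3.84, 4.08, 3.92 and 3.95 on the TAC arrays. The dimmer had levels of 0.59, 0.60 and 0.45 on the Sham arrays and of 0.03, 0.41, 0.32 and 0.42 on the TAC arrays. On both probes TAC replicate 1 was the lowest array, and the groups overlapped on the brighter probe through TAC replicate 2 and did not overlap on the dimmer one. The differences were -0.19 ± 0.09 (SE, 95% interval -0.40 to 0.03) and -0.26 ± 0.12 (SE, 95% interval -0.54 to 0.02), with limma adjusted p-values of 0.443 and 0.421. In the table of 8 arrays Sham replicate 1 had a level of 0.59 on the dimmer probe, as high as 2 TAC arrays (0.58 and 0.59), and the groups overlapped there. Without TAC replicate 1 the differences were -0.15 and -0.17.

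**Figure D3:**
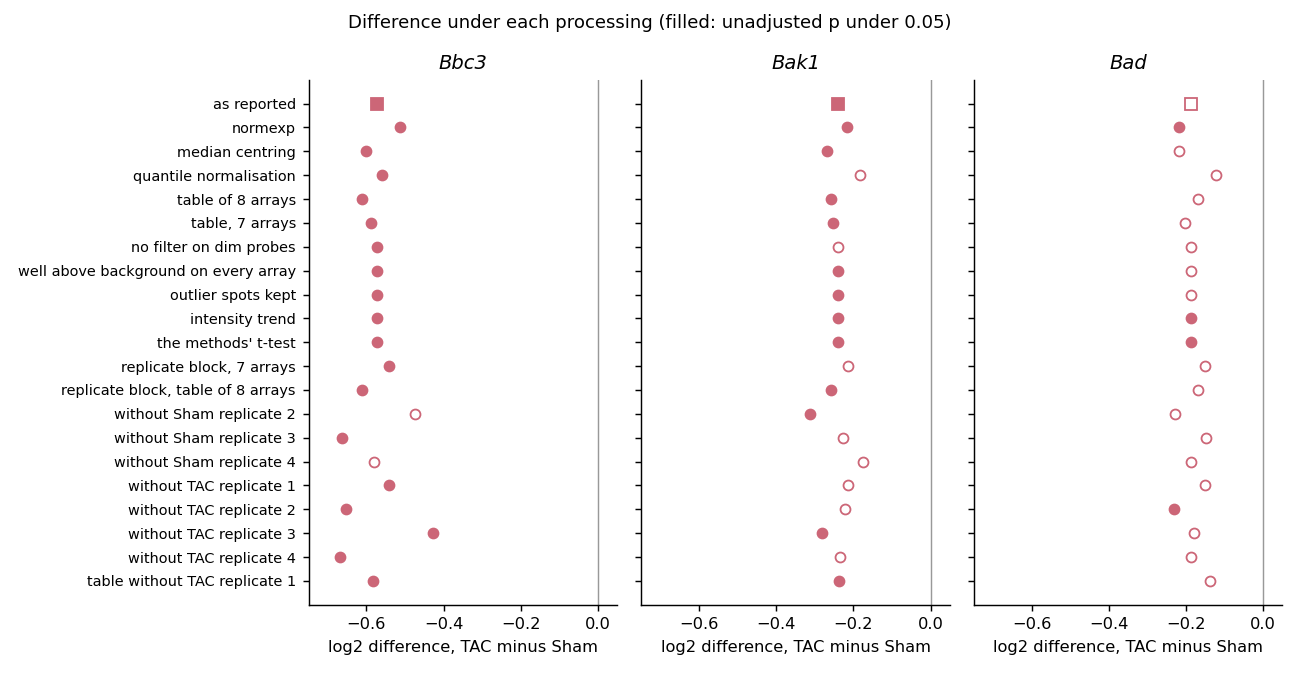
Each point is the log2 difference, TAC minus Sham, of Bbc3, Bak1 or Bad (brighter probe) under 1 way of processing the arrays, named on the vertical axis, and the square is the value as reported. Filled points have an unadjusted p under 0.05. All points lie below 0, between -0.67 and -0.43 for Bbc3, -0.31 and -0.18 for Bak1 and -0.23 and -0.12 for Bad, and no adjusted p was under 0.05.

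Bid, the link from death receptors to mitochondria, had levels of -1.09, -1.52 and -1.17 on the Sham arrays and of 0.29, -1.42, -1.30 and -0.91 on the TAC arrays. TAC replicate 1 was the highest array, and the other 3 TAC arrays lay within or just above the Sham range. The difference was 0.42 ± 0.40 (SE, 95% interval -0.53 to 1.38), with a limma adjusted p of 0.674. Without TAC replicate 1 it was 0.05, and in the table of 8 arrays without that array it was -0.10. Sham replicate 1 had the highest Sham level in that table, -0.53 against -1.33 to -0.88 for the others.

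Bcl2l11 was dim. Its probe with the higher mean had levels of -4.15, -3.93 and -3.78 on the Sham arrays and of -4.27, -4.29, -3.86 and -3.98 on the TAC arrays, and it was well above background on 5 of 7 arrays. The groups overlapped, and the difference was -0.15 ± 0.15 (SE, 95% interval -0.50 to 0.20). A second probe, for another transcript of the gene, was well above background on all 3 Sham arrays and on 1 of 4 TAC arrays, with a difference of -0.47 ± 0.30 (SE, 95% interval -1.17 to 0.24) and a limma adjusted p of 0.530. This probe passed the filter through its Sham arrays, and 3 of its 4 TAC values lay at background, so the size of its difference is not measured on the TAC side. It was -0.12 with normexp background correction and -0.28 without TAC replicate 1, the lowest array.

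Pmaip1 was not well above background on any of the 3 Sham arrays, where its levels were -5.32, -4.93 and -4.76. It was well above background on 1 of 4 TAC arrays, TAC replicate 1, at -2.39, while the other TAC arrays had -4.59, -4.85 and -5.02. Without TAC replicate 1 no array of either group measured it, so no fold and no test are given.

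The 13 tested probes were spread over the arrays as follows. TAC replicate 1 was the highest array at 4 probes and the lowest at 4. Relative to the Sham mean, 12 of the 13 probes were lower on TAC replicate 2, 10 on TAC replicate 3 and 9 on TAC replicate 4, and 7 were lower on TAC replicate 1. Sham replicate 2, with 9 of 13 probes below the Sham mean, resembled the TAC arrays in this count, while Sham replicates 3 and 4 had 4 and 3. Second probes of a gene were counted separately. The matching shares over all tested probes are not given, so these counts are not a result about the family.

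TAC replicate 1 was also apart in markers of other cell types, and their part in the levels of Bid, Pmaip1 and Mcl1 was not tested. The 9 macrophage markers averaged 0.81 above the Sham mean on this array, with 7 of 9 at their highest there, and -0.42 to -0.06 on TAC replicates 2 to 4. Their summed level on the linear scale was 63.1 on TAC replicate 1, 34.4 to 41.1 on the other TAC arrays and 39.9 to 41.7 on the Sham arrays. Such a sum weighs the brightest probes most, here Itgam (4.95 on TAC replicate 1) and Csf1r (4.11). Adgre1, the defining macrophage marker, had a level of 0.76 on this array and of -1.27 to -0.34 on the other 6. Cd163 went the other way and was lowest on this array, at -4.59 against -4.20 to -2.69. Cd14 was highest on TAC replicate 2, at 1.33 against 1.13 on TAC replicate 1. The 4 lymphocyte markers tested, of 7, did not move together. Cd3g had a level of -2.27 on this array against -4.41 to -3.44 on the others, and Cd8a, which was well above background on 3 of 7 arrays, was also highest there, while Cd4 was lowest there, at 2.60 against 2.61 to 2.71. Their summed level, which weighs the brightest probes, Cd4 and Cd3e, most, was 8.46 here and 8.19 to 8.89 elsewhere. The 10 brown adipocyte markers averaged 1.24 below the Sham mean on this array, with unequal differences. Elovl3, an enzyme that lengthens fatty acids, had a level of -3.79 against 1.57 to 2.06 on the Sham arrays, Dio2, which activates thyroid hormone, 0.64 against 2.37 to 3.75, and Ucp1 8.37 against 9.39 to 9.70, while Adipoq, at 8.04, lay within its Sham range. Of 4 proliferation markers 3 were tested, with a mean relative to Sham of 0.57 on this array and of -0.53 to 0.34 on the others. Mki67 (-0.09 against -2.11 to -1.43) and Ccnb1 were highest on this array. Cdk1, well above background on 3 of 7 arrays, was not. The part of these markers in the levels of the members was not tested. Skeletal muscle markers did not single out this array. All 8 were measured higher after TAC, with a mean relative to Sham of 1.62, 1.06, -0.46 and 1.47 on TAC replicates 1 to 4 and of -0.85, 0.84 and 0.01 on the Sham arrays, and their part in the levels of the members was not tested. Bcl2a1d, a survival gene of blood cells that was chosen here after its values were seen, had a level of 0.88 on TAC replicate 1 and of -2.04 to -1.61 on the other 6 arrays. Sham replicate 1 was, in the table, the highest Sham array for Bcl2a1d, at -0.62 against -1.64 to -1.63, as it was for Bid. Bcl2a1d has near-identical copies in the genome, so its probe may read more than 1 gene.

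**Figure D4:**
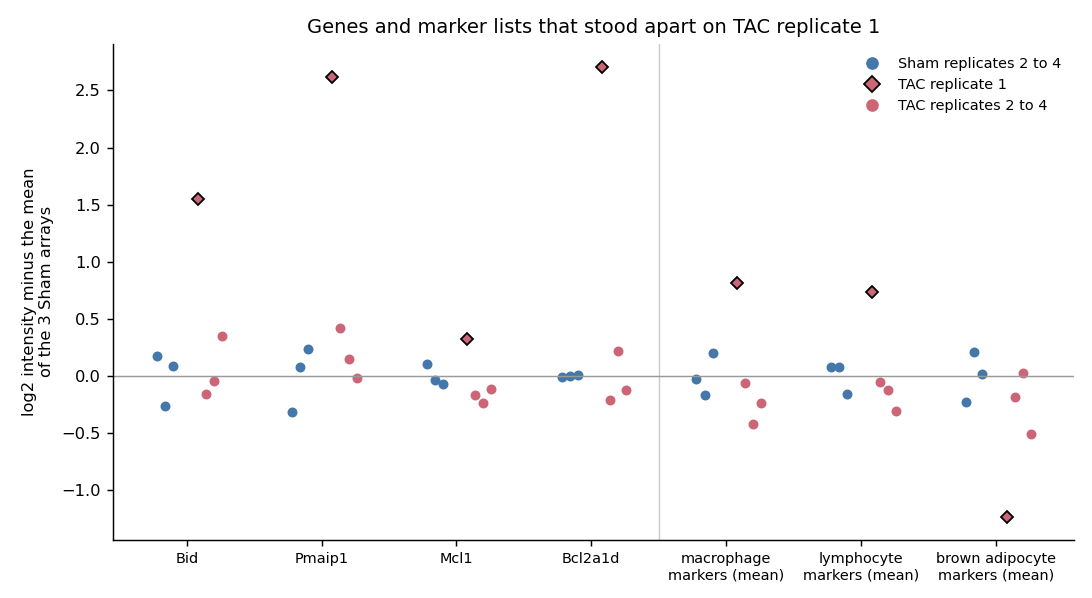
Points are arrays, plotted as log2 intensity minus the mean of the 3 Sham arrays, for 4 genes on the left and for the mean of 3 lists of cell type markers on the right. The outlined diamond is TAC replicate 1, which is above the other 6 arrays at all 4 genes and at the mean of the macrophage and of the lymphocyte markers, the latter through Cd3g and Cd8a, and below them at the mean of the brown adipocyte markers. Pmaip1 was well above background on that array only.

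Of 15 other BCL2 family genes, 11 had a tested probe, with 6 measured lower, 5 higher and a median difference of -0.03. None passed the adjusted test (limma), 1 was higher at an unadjusted p under 0.05, beside 4.38% of all tested probes, and 0 were lower, beside 8.43%. That gene was Bok, a relative of Bax and Bak1 with levels of -1.25, -1.34 and -1.73 on the Sham arrays and of -0.88, -1.15, -0.86 and -0.91 on the TAC arrays. Every TAC array was above every Sham array, and the difference was 0.49 ± 0.14 (SE, limma adjusted p 0.278). Sham replicate 1 had a level of -0.70 in the table, and the groups overlapped there. Bcl2l12 was 0.13 higher (limma adjusted p 0.485), with every TAC array above every Sham array among the 7 and an overlap in the table. Bcl2l15 was 0.67 lower, or 0.34 lower without TAC replicate 1. In the table, where Sham replicate 1 had a level of -3.07, the difference of Bcl2l15 was -0.41, and -0.08 without TAC replicate 1.

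Of the 15 genes of the apoptosome, caspases and inhibitors of apoptosis, which act after the BCL2 family opens the mitochondrion, all were tested, and 12 were measured lower and 3 higher, with a median of -0.10, where 55.9% of all tested probes were lower. None passed the adjusted test (limma), 2 were lower at an unadjusted p under 0.05, beside 8.43% of all tested probes, and 0 were higher, beside 4.38%. These were Cycs, the cytochrome c that the pores release, with a difference of -0.29 ± 0.10 (SE, adjusted p 0.336), and Aifm1, a flavoprotein of the space between the mitochondrial membranes, with -0.31 ± 0.12 (SE, adjusted p 0.356). Both had every TAC array below every Sham array among the 7, and both overlapped once Sham replicate 1 was included. Htra2, a mitochondrial protease, had -0.22 ± 0.10 (SE). These proteins also serve in healthy mitochondria. Of the brown adipocyte markers 9 of 10 were measured lower after TAC too, with a median of -0.17, and their part in these values was not tested. The mean of these markers relative to Sham was -1.24, -0.185, 0.02 and -0.51 on TAC replicates 1 to 4. Without TAC replicate 1, Ppargc1a (0.26), Adipoq (0.25) and Plin5 (0.04) were measured higher and the others stayed lower.

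In the death receptor pathway, which reaches the family through Bid, 9 of 11 genes were tested, and 6 were measured lower and 3 higher, with a median of -0.03. None passed the adjusted test (limma). At an unadjusted p under 0.05, 1 was lower, beside 8.43% of all tested probes, and 0 were higher, beside 4.38%. Tnfrsf10b, the receptor for TRAIL, had levels of 0.95, 0.88 and 0.73 on the Sham arrays and of 0.35, 0.55, 0.57 and 0.60 on the TAC arrays, a difference of -0.34 ± 0.10 (SE, adjusted p 0.285). Its TAC arrays lay below every Sham array in the table of 8 arrays too. Cflar, which blocks caspase activation at the receptor, had -0.17 ± 0.09 (SE), and Ripk1 had 0.14 ± 0.08 (SE). The TAC arrays of Cflar also lay below every Sham array, among the 7 and in the table of 8 arrays. That order was found at 10.4% and 6.29% of all tested probes.

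Of 14 regulators and partners of the members, all were tested, and 6 were measured lower and 8 higher, with a median of 0.08. None passed the adjusted test (limma). At an unadjusted p under 0.05, 1 was lower, beside 8.43% of all tested probes, and 0 were higher, beside 4.38%. Mapk8, the kinase JNK1 that can phosphorylate BH3-only proteins, had a difference of -0.32 ± 0.11 (SE, adjusted p 0.319) on its brightest probe, and its other 2 tested probes went the other way. With normexp background correction the difference was -0.10, with an unadjusted limma p of 0.358. Ddit3, the stress factor CHOP, had 0.23 ± 0.11 (SE), and Fbxw7, part of a ligase that marks MCL1 for degradation, had 0.195 ± 0.094 (SE), or 0.12 without Sham replicate 2. Among the 7 and in the table of 8 arrays, every TAC array lay below every Sham array at the brightest probe of Mapk8. At Fbxw7 every TAC array lay above, in both sources. Over all tested probes these shares were 10.4% and 6.29% below, and 5.59% and 3.53% above.

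For the factors whose sites were found in the promoters of Bbc3, Bcl2l11 and Bax, Foxo1 had levels of 4.64, 4.88 and 5.17 on the Sham arrays and of 4.79, 5.11, 5.25 and 4.995 on the TAC arrays. The groups overlapped, and the difference was 0.14 ± 0.16 (SE, limma adjusted p 0.735). Foxo3, which was well above background on 5 of 7 arrays, had -0.15 ± 0.17 (SE). Trp53 had 0.31 ± 0.20 (SE, limma adjusted p 0.528) with TAC replicate 1, where its level was -1.44 against -2.31 to -2.002 on the other 6 arrays, and 0.14 without it. FOXO factors and p53 are controlled largely as proteins, which these arrays do not measure.

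**Figure D5:**
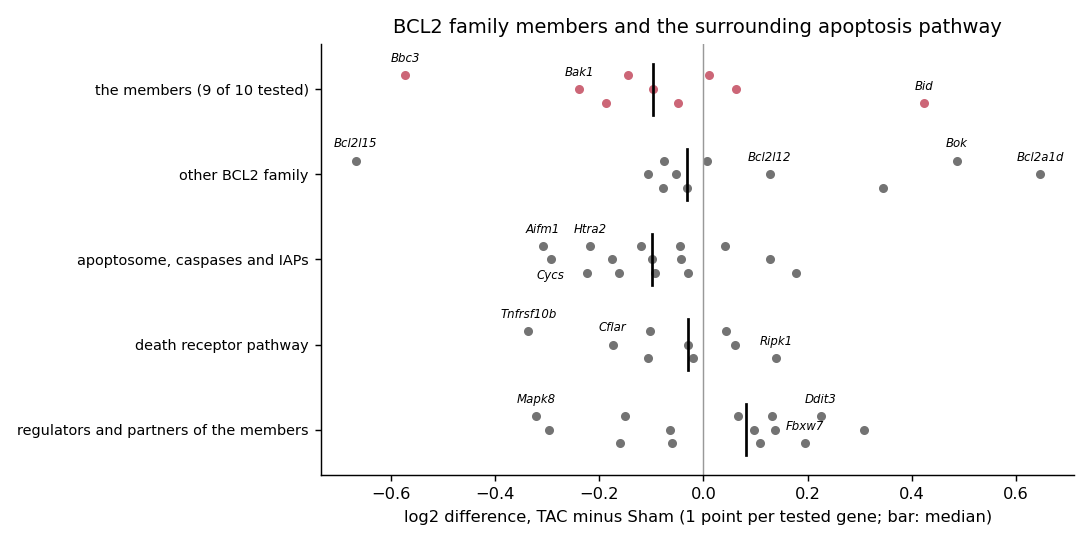
Each point is the log2 difference, TAC minus Sham, of 1 tested gene by its brightest probe, and each vertical bar is the median of the tested genes of its group. Red points are the members, and named genes are those described in the text. The medians lie between -0.10 and 0.08, and no point passed the adjusted test.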

How the data were processed

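BAT of 4 Sham and 4 TAC mice was profiled on one-colour Agilent arrays. The submitters' processing notes name Agilent Feature Extraction 10.7.1.1. The authors deposited background-subtracted intensity values per spot for 7 arrays and a table of intensity values of all 8 arrays, which by its values is the same intensity divided by the 75th percentile of each array. From 59305 spots that are not controls, outlier spots were left out (134 to 191 per array), values were converted to log2, the 75th percentile of the array was subtracted, and spots of 1 probe were averaged. Testing was limited to probes well above background on 3 or more of the 7 arrays, with values on 2 or more arrays per group, and used lmFit and eBayes of limma 3.58.1 (R 4.3.3), without covariates, with Benjamini-Hochberg adjustment over 33364 probes. This fit was tested on simulated data. RefSeq accessions named 28026 of 55681 probes (GRCm38.p6). The probe with the highest mean stands for a gene. Of each pathway list the 3 genes with the smallest p are named, and Bcl2a1d, Foxo1, Foxo3 and Trp53 were added. The members and lists were chosen with earlier results of these data known. p-values measure the spread between mice within 1 slide, and the small number of arrays limits their precision. Alternatives changed the background (normexp, offset 50), the scaling (median or quantile), the source (deposited table, 8 or 7 arrays), the filter on dim probes (none, or every array), the test (intensity trend, or the methods' t-test), or the block (replicate number), kept outlier spots, dropped each array in turn, or averaged a gene's probes. The methods' t-test is Student's t-test, which the paper names for comparing groups without stating how these arrays were tested. The table without TAC replicate 1 was added after the data were seen.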

Additional observations from a re-analysis of the deposited data

Results flagged for a closer look

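In 4 of 54 groups of 4 arrays, 1 array lay far from the other 3, by the gap to its nearest neighbour as a share of the range of the group. Chance flags about 1 in 20 groups. Bcl2a1d was chosen after its values were seen, so its flags cannot be set against that rate. Pmaip1 on TAC replicate 1 had a level of -2.39 against -5.02 to -4.59 on the other TAC arrays (gap 0.836 of the range), and it was well above background on that array only. Bcl2a1d on TAC replicate 1 had a level of 0.88 against -2.04 to -1.61 (gap 0.854). Bcl2a1d on Sham replicate 1, in the table of 8 arrays, had a level of -0.62 against -1.64 to -1.63 on the other Sham arrays (gap 0.983). Fbxw7 on Sham replicate 2, in the same table, had a level of 0.39 against 0.57 to 0.59 (gap 0.909).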

How the results depend on the processing

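Over 522 values of 26 genes or probes under the alternatives, 497 kept their direction, 25 had the opposite sign and 0 passed an adjusted p of 0.05. The filters on dim probes, the intensity trend and the methods' t-test cannot change the direction, so their part of the 497 was fixed in advance. Over the whole array the counts past an adjusted p of 0.05 were 0 higher and 0 lower, and 1 probe was lower with normexp and 1 with median centring. Leaving out each array gave 0 to 7 higher and 0 to 1 lower, all of them without TAC replicate 4. At an unadjusted p under 0.05, leaving out each array gave 893 to 1562 higher probes, beside 1462, and 1602 to 2995 lower probes, beside 2814, with both lowest counts without Sham replicate 3.

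The count of member probes lower at an unadjusted p under 0.05, 2 as reported, was 4 with normexp, 4 with an intensity trend, 1 with quantile normalization, 1 without a filter on dim probes and 0 to 3 when arrays were dropped singly, with 0 without Sham replicate 4 and 3 without TAC replicate 2. Over all tested probes the lower counts were 2814 as reported (8.43%), 2688 with normexp, 2922 with an intensity trend and 2830 with quantile normalization. They were 3371 without that filter, where more probes were tested, 2055 without Sham replicate 4 and 2995 without TAC replicate 2. Replicate numbers 2 to 4 did not pair the arrays, with correlations of deviations between -0.03 and 0.00 over the 3 pairs of the 7 arrays. In the table of 8 arrays they had correlations between 0.02 and 0.06, and replicate number 1, paired only there, had 0.27. With the replicate number as a block the count of member probes was 1 on the 7 arrays, where TAC replicate 1 has no partner and drops out, and 3 on the table of 8 arrays. Over all tested probes the lower counts were 2480 and 3475.

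Several values changed sign, those of Bid and Bcl2a1d only where TAC replicate 1 was absent. Without TAC replicate 1 Bcl2 was -0.0104, Bcl2l1 -0.0551, the second probe of Mcl1 -0.0618 and Bcl2a1d -0.0401. The replicate block of 7 arrays, in which that array drops out, gave these same differences. When TAC replicate 1 was dropped from the table, Bcl2 was -0.0460, the second probe of Mcl1 -0.0122, Bid -0.102 and Bcl2a1d -0.313. Bcl2l1 was -0.0190 with median centring and -0.0052 in the table of 7 arrays. Mcl1 was 0.0410 with quantile normalization and 0.0153 as the mean of both probes. Bcl2l11 was 0.0118 with normexp. Dropping each array in turn gave ranges of -0.0186 to 0.127 for Bcl2, -0.145 to 0.179 for Bcl2l1, -0.0658 to 0.179 for its second probe, -0.172 to 0.0149 for Mcl1, -0.0618 to 0.175 for its second probe and -0.0401 to 0.933 for Bcl2a1d. Without a change of sign, Bax ranged from -0.150 to -0.0463 (smallest without Sham replicate 3) and Bcl2l11 from -0.245 to -0.0578 (smallest without Sham replicate 4). The cause was not tested. The median standard error was 0.148 (log2) over the member probes. The 95% interval of a probe with that error, the brighter of Mcl1, ran from -0.398 to 0.302, and Bcl2l11 and Pmaip1 lay near background.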
